A study of Mus musculus with 8 samples.

Results

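Oligodendrocyte lineage and myelin genes were followed in the hippocampus of mice labelled KO for Pyk2 and of WT mice, before fear conditioning. They were 29 genes chosen by name for their known place in this lineage, of 55188 genes in the deposited tables. All 29 were found, all carried the status OK in every library, and all passed the filter on low values. They were read as 5 precursor and committed genes (Pdgfra, Cspg4, Gpr17, Enpp6 and Bcas1), 3 factors of the whole lineage (Olig1, Olig2 and Sox10) and 21 mature genes of myelination, myelin and its metabolism. The design held 4 libraries of KO animals and 4 of WT animals, all from C57BL/6 mice and all described in the labels as from transgenic mice. Sample titles gave 2 animal numbers in each group, KO1, KO2, WT1 and WT2, with 2 technical replicates each. Whether a number stands for 1 mouse is not given, nor is any age or allele, so p-values measure the spread between these numbered units, called animals here. Levels are FPKM (fragments scaled by transcript length and by the mapped fragments of the library), averaged over the technical replicates of an animal.

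Oligodendrocytes are the myelinating glia of the central nervous system. They arise from dividing precursors that carry the receptors encoded by Pdgfra and Cspg4, pass through a committed stage marked by Gpr17, Enpp6 and Bcas1, and end as mature cells that wrap axons with compacted membrane. The factors encoded by Olig2 and Sox10 act from the precursor on, and Myrf is needed for the late myelin programme, in which many genes of membrane proteins and lipid enzymes are switched on together. In the hippocampus myelinated fibres lie mainly in the alveus, the fimbria and the strata that carry long-range axons.

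Sox10, an HMG-box factor, binds short sites such as ACAAAG and ACAATG, and Olig factors can bind E-boxes such as CAGCTG. Promoter windows of RefSeq on GRCm38.p6, from 250 bases before to 50 bases after a gene's start, were matched by symbol for 21 of the 29 genes. The windows of Mobp, Opalin and Olig2 are shown 5′ to 3′ on the strand of the gene, with ACAAAG or ACAATG on either strand in capitals. Mobp is shown as the mature gene that differed most between the KO animals, Opalin as a myelin gene with such sites on both sides of its start, and Olig2 as the lineage factor whose KO animals went the other way. They lie at chr9:120149492-120149791 (+), chr19:41077064-41077363 (-) and chr16:91225300-91225599 (+).
Mobp: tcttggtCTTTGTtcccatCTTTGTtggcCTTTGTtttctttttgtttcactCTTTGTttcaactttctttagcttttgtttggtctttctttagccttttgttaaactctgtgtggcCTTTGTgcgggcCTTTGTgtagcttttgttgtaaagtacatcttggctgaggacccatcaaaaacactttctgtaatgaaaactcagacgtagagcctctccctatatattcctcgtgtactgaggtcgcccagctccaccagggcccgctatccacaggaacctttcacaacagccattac
Opalin: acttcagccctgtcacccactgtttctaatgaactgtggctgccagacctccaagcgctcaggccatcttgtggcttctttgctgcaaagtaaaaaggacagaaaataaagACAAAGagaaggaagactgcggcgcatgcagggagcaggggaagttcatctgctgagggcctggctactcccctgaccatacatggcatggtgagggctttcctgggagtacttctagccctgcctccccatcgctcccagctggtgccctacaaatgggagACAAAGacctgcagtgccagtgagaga
Olig2: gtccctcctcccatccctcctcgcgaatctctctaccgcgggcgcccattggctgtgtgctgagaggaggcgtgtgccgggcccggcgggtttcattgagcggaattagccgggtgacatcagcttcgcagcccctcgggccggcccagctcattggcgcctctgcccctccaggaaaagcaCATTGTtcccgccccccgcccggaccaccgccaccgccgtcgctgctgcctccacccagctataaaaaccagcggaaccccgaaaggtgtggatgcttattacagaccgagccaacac
The Mobp window held 6 matches to ACAAAG, and it was the only 1 of 32851 RefSeq windows with as many. The 21 genes had 25 windows. Matches to ACAAAG on either strand lay in 7 of the 25, from 6 genes (Cnp, Mobp, Opalin, Tspan2, Gjb1 and Apod), against 18.7% of all windows. Matches to ACAATG lay in 6 of the 25, from 6 genes, and in 12.6% of all windows. Matches to CAGCTG, left in lower case, lay in 4 of the 25, from 4 genes, and in 16.3% of all windows. No capital run overlaps another. Such a match describes the letters of a window and is no evidence of binding, and these windows and motifs were chosen after the sequences had been seen.

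Libraries were alike in scale. Their FPKM summed to between 489153 and 506251, and between 26483 and 27873 genes were above 0. Fragment numbers are not known, so the counting error is given only by the deposited confidence limits, whose median half-width was between 2.48% of the level for Cldn11 and 17.1% for Enpp6. Ptk2b, which encodes Pyk2, had 277.9 and 269.0 FPKM in the KO animals and 231.9 and 202.2 FPKM in the WT animals. Animals labelled KO were thus not lower for this gene, whose log2 fold change was 0.34 (adjusted p = 0.158). The labels do not say which part of the gene was deleted, and a level summed over the gene cannot check a deletion inside it, so the groups below stand on their labels. Markers of choroid plexus, the epithelium that makes cerebrospinal fluid, stood far apart. Their 16 genes summed to 308.0 and 1273 FPKM in the KO animals and to 4353 and 7659 FPKM in the WT animals.

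Mbp and Mobp were among the most abundant transcripts of the tissue, and the precursor genes Pdgfra and Cspg4 were low. Mbp, which encodes myelin basic protein, averaged 1570 FPKM over the 4 animals and ranked 28 among 16667 genes tested. Mobp, which encodes another basic protein of compact myelin, averaged 440.1 FPKM and ranked 98. Next came Cnp (142.5 FPKM), Qdpr (131.4 FPKM), Apod (116.9 FPKM), Car2 (115.7 FPKM) and Mal (104.0 FPKM), so that 7 of the 29 were at or above 100 FPKM. A further 16 were between 10 and 100 FPKM, from Cldn11 (96.1 FPKM) and Bcas1 (74.6 FPKM) down to Aspa (10.6 FPKM). The last 6 were Pdgfra (9.37 FPKM), Hapln2 (8.61 FPKM), Gjb1 (8.22 FPKM), Nkx6-2 (7.38 FPKM), Cspg4 (3.32 FPKM) and Enpp6 (2.74 FPKM). Mean levels spanned 574-fold. Of the 28 neighbouring pairs in this order, 19 had ranges over the animals that overlapped, so much of the order is not fixed by these data, whereas Mbp and Mobp each stood above the next gene in every animal. These levels are per length and can be set side by side between genes.

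**Figure D1:**
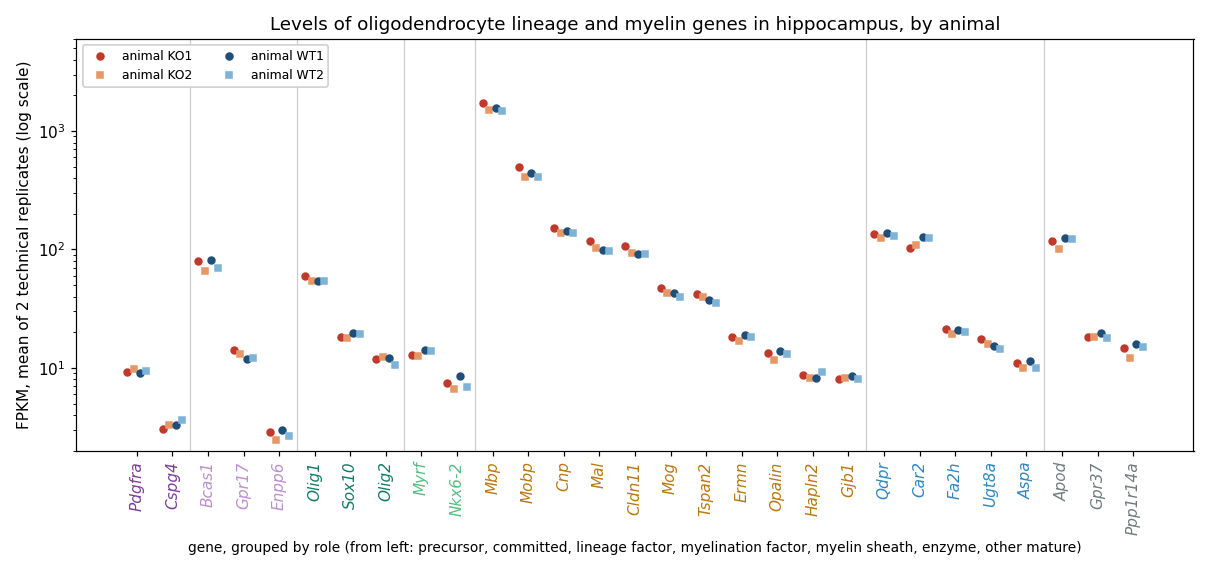
FPKM of each of the 29 genes (log scale, mean of the 2 technical replicates) in KO1, KO2, WT1 and WT2, grouped by role from precursor genes on the left to other mature genes on the right. Mbp, at 1736 and 1496 FPKM in the KO animals and 1579 and 1468 FPKM in the WT animals, stands above all others, and the 4 points of a gene lie close together against the range between genes.

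No oligodendrocyte gene passed the test between the animals labelled KO and WT. With limma over all genes, 0 of the 29 were called higher, where 0% of 16667 genes were, and 0 were called lower, where 9 genes (0.054%) were, at an adjusted p under 0.05. Adjusted p-values of the 29 ranged from 0.117 (Car2) to 0.908 (Aspa). At an unadjusted p under 0.05, 2 were higher (Gpr17 and Tspan2; 6.9% against 4.11% of all genes) and 2 lower (Myrf and Car2; 6.9% against 11.4%). The median log2 fold change of the 29 was -0.03, against -0.02 for all genes tested. An estimate below 0 was found for 17 of the 29 (58.6%), against 58.0% of all genes. Over the 9739 genes tested at 5 FPKM or more on average this share was 50.7%, and their median log2 fold change was -0.0016.

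The size of change that the data allow was bounded more tightly than the calls alone show. For 25 of the 29 the 95% interval of the log2 fold change held 0. The bound farthest from 0 for any of the 29 was 0.44, for Ppp1r14a. That is a 1.36-fold change of FPKM + 1, which understates the fold of FPKM itself. Both KO animals were above both WT animals for 7 genes (24.1%, against 18.4% of all genes), namely Gpr17, Olig1, Mog, Mal, Cldn11, Tspan2 and Ugt8a. Both were below for 6 genes (20.7%, against 30.7% of all genes), namely Cspg4, Sox10, Myrf, Car2, Apod and Ppp1r14a. The other 16 overlapped between the groups. Of the 29, only Cspg4 and Enpp6 averaged under 5 FPKM. Over the 9739 genes tested at 5 FPKM or more on average, both KO animals were above for 2379 and below for 2542. That is closer to even than over all genes. An exact permutation test of 2 against 2 animals cannot give a p below 1 in 3, so the separation of a single gene has no test of its own beyond the fit over all genes. All 4 KO libraries were above all 4 WT libraries for Gpr17, Mal, Tspan2 and Ugt8a, and below for Sox10, Myrf, Car2 and Apod. Libraries of an animal are technical replicates, and the share of all genes separated in this way was not counted. Such a separation of libraries is thus no added support. In bulk tissue, fewer cells of a type and less RNA per cell cannot be told apart.

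**Figure D2:**
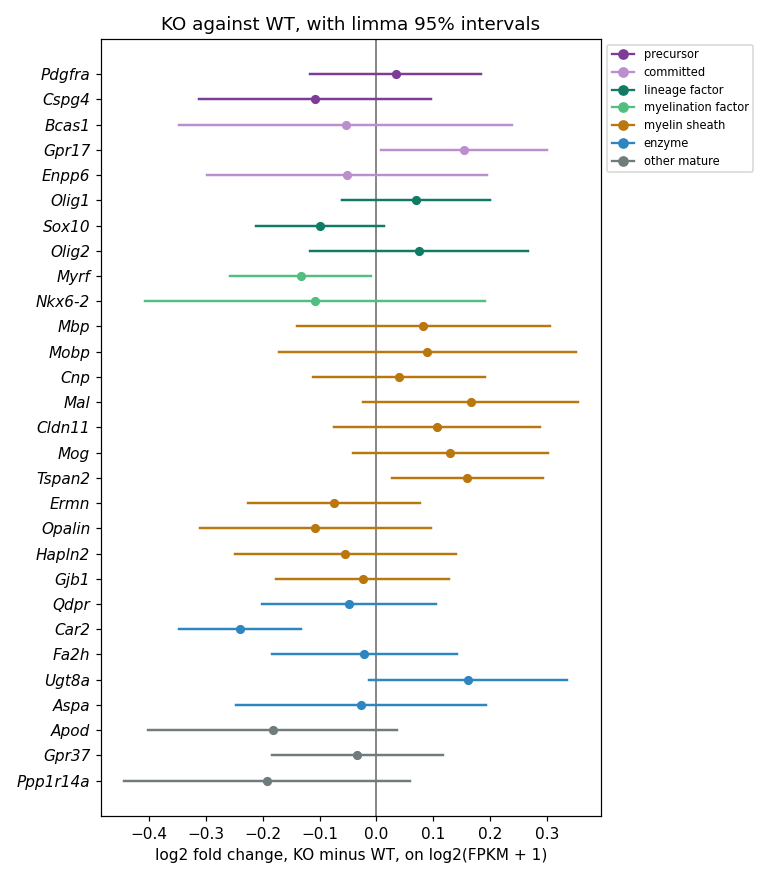
Log2 fold change of each gene, KO minus WT on log2(FPKM + 1), as a point with its 95% limma interval as a line, coloured by role. The 4 intervals that leave out 0 are those of Gpr17 and Tspan2 on the higher side and Myrf and Car2 on the lower side, and none of the 29 passed after adjustment.

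Precursor genes lay close to level between the groups. Pdgfra encodes the receptor for the growth factor that keeps precursors dividing. Its level was 8.89 and 9.52 FPKM in the libraries of KO1, 9.82 and 9.75 FPKM in those of KO2, 9.20 and 8.92 FPKM in those of WT1, and 9.32 and 9.56 FPKM in those of WT2. The groups overlapped and the means were 9.49 ± 0.41 FPKM in KO and 9.25 ± 0.27 FPKM in WT (SD, n = 2 each). The log2 fold change was 0.03 (95% interval -0.12 to 0.18, adjusted p = 0.827). Cspg4, which encodes the NG2 proteoglycan and is also made by pericytes, had 3.04 and 3.27 FPKM in the KO animals and 3.30 and 3.66 FPKM in the WT animals. Both KO animals were thus below both WT animals, by little (log2 fold change -0.11 ± 0.08 SE, adjusted p = 0.563).

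Of the committed-stage genes, Gpr17 was the one that separated the groups. It encodes a G-protein-coupled receptor found in oligodendrocytes about to differentiate. Its level was 14.0 and 13.0 FPKM in the KO animals and 11.9 and 12.2 FPKM in the WT animals, with all 4 KO libraries above all 4 WT libraries, and its log2 fold change was 0.15 ± 0.06 SE (adjusted p = 0.303 by limma). Gpr17 overlaps Lims2 on the opposite strand, and with no strand setting given the fragments of overlapping genes cannot be separated. Bcas1, which encodes a protein of early myelinating cells, had 80.2 and 66.3 FPKM in the KO animals and 81.6 and 70.4 FPKM in the WT animals. Enpp6, which encodes a choline phosphodiesterase of newly formed oligodendrocytes, had 2.89 and 2.46 FPKM in the KO animals and 2.97 and 2.64 FPKM in the WT animals. For both genes the animals of 1 group differed by more than the group means, with adjusted p of 0.863 for Bcas1 and 0.838 for Enpp6. Over the 5 precursor and committed genes the median log2 fold change was -0.05, and 2 estimates were above 0.

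The lineage factors had small estimates on both sides of 0. Olig2, a basic helix-loop-helix factor that specifies the lineage, had 12.6 and 11.1 FPKM in the libraries of KO1, 12.6 and 11.9 FPKM in those of KO2, 12.8 and 11.6 FPKM in those of WT1, and 10.9 and 10.5 FPKM in those of WT2. WT2 was the low animal and the groups overlapped, with means of 12.1 ± 0.27 FPKM in KO and 11.4 ± 1.08 FPKM in WT (log2 fold change 0.07, adjusted p = 0.679). Olig1, its neighbour 41.1 kb away on chromosome 16, had 59.2 and 54.7 FPKM in the KO animals and 54.6 and 53.8 FPKM in the WT animals. The higher WT animal was just below the lower KO animal (log2 fold change 0.07, adjusted p = 0.558). Sox10 went the other way, with 18.3 and 17.9 FPKM in the KO animals and 19.7 and 19.2 FPKM in the WT animals. All 4 KO libraries of Sox10 were below all 4 WT libraries, at -0.10 ± 0.04 SE on the log2 scale (adjusted p = 0.367).

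Among the factors of the mature stage, Myrf, which encodes a membrane-bound factor that is cleaved and then activates myelin genes, was lower in KO in all libraries. It had 12.9 and 12.6 FPKM in the KO animals and 14.3 and 13.8 FPKM in the WT animals (log2 fold change -0.13 ± 0.05 SE, adjusted p = 0.299 by limma). Nkx6-2, a homeobox factor of myelination, had 7.45 and 6.64 FPKM in the KO animals and 8.58 and 6.84 FPKM in the WT animals. Here WT1 stood above the other animals, and the groups overlapped (adjusted p = 0.701). Nkx6-2 overlaps Inpp5a on the opposite strand.

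Of 11 genes of the myelin sheath 0 passed the test, and 7 (63.6%) had estimates above 0, against 42.0% of all genes. Of the 9739 genes tested at 5 FPKM or more on average, a level all 11 reached, 4804 had estimates above 0. Over the 11 sheath genes the median log2 fold change was 0.08. It rested on KO1, since without that animal 4 of 11 estimates were above 0 and the median was -0.03. Mbp had 1731 and 1742 FPKM in the libraries of KO1, 1487 and 1505 FPKM in those of KO2, 1574 and 1584 FPKM in those of WT1, and 1468 and 1467 FPKM in those of WT2. Libraries of 1 animal agreed closely, KO1 was the high animal, and KO2 lay between the WT animals. Group means were 1616 ± 170.1 FPKM in KO and 1523 ± 78.6 FPKM in WT (SD, n = 2 each). The log2 fold change was 0.08 (95% interval -0.14 to 0.30, adjusted p = 0.694). Mobp was likewise highest in KO1, with 499.3 and 410.1 FPKM in the KO animals and 440.7 and 410.4 FPKM in the WT animals (log2 fold change 0.09, adjusted p = 0.721). Cnp, which encodes the phosphodiesterase that keeps cytoplasmic channels in myelin open, had 151.5 and 137.6 FPKM in the KO animals and 143.8 and 137.3 FPKM in the WT animals (log2 fold change 0.04, adjusted p = 0.794). Cnp overlaps Dnajc7 on the opposite strand.

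Tspan2, Mal, Mog and Cldn11 were the sheath genes with both KO animals above both WT animals. Tspan2, a tetraspanin of the sheath, had 42.3 and 39.7 FPKM in the KO animals and 37.5 and 35.7 FPKM in the WT animals, all 4 KO libraries being above all 4 WT libraries. Its log2 fold change was 0.16 ± 0.05 SE (adjusted p = 0.263 by limma), and it overlaps Tspan2os and Tshb on the opposite strand. Mal, a proteolipid of myelin rafts, had 118.2 and 102.2 FPKM in the KO animals and 98.4 and 97.4 FPKM in the WT animals. The KO animals of Mal differed from each other by more than their mean differed from that of the WT animals (log2 fold change 0.17 ± 0.07 SE, adjusted p = 0.369). Mog, which encodes a glycoprotein of the outermost lamella, had 47.7 and 42.9 FPKM in the KO animals and 42.7 and 39.9 FPKM in the WT animals (adjusted p = 0.416). Cldn11, which encodes the tight-junction protein between lamellae, had 106.5 and 92.9 FPKM in the KO animals and 92.4 and 92.3 FPKM in the WT animals (adjusted p = 0.519). For Cldn11 the separation came from KO1, since KO2 lay within 1 FPKM of both WT animals.

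The remaining sheath genes had estimates below 0 and overlapping groups. Opalin, which encodes a paranodal membrane glycoprotein, had 13.4 and 11.7 FPKM in the KO animals and 14.0 and 13.2 FPKM in the WT animals. Ermn, which encodes a cytoskeletal protein of the outer sheath, had 18.3 and 16.9 FPKM in the KO animals and 19.0 and 18.1 FPKM in the WT animals. In both genes KO2 was the lowest of the 4 animals and WT1 the highest. Hapln2, which encodes a link protein of the nodal matrix, had 8.67 and 8.16 FPKM in the KO animals and 8.26 and 9.32 FPKM in the WT animals. Gjb1, which encodes the gap-junction protein connexin 32, had 8.13 and 8.15 FPKM in the KO animals and 8.58 and 8.01 FPKM in the WT animals. Their log2 fold changes were between -0.11 (Opalin) and -0.02 (Gjb1), with adjusted p between 0.56 (Opalin) and 0.88 (Gjb1).

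Car2 gave the largest difference of the 29. It encodes carbonic anhydrase II, which oligodendrocytes make in quantity, and which choroid plexus epithelium and red blood cells also make. Its level was 100.5 and 106.0 FPKM in the libraries of KO1, 107.3 and 110.4 FPKM in those of KO2, 127.6 and 125.6 FPKM in those of WT1, and 124.4 and 124.0 FPKM in those of WT2. Every KO library was below every WT library, and the means were 106.1 ± 3.97 FPKM in KO and 125.4 ± 1.71 FPKM in WT (SD, n = 2 each). The log2 fold change was -0.24 (95% interval -0.35 to -0.13), and it missed the threshold over all genes (adjusted p = 0.117 by limma). It passed in 1 of 23 alternatives, where all 8 libraries were units with the animal as a correlated block (adjusted p = 0.0041). Choroid plexus markers were lower in both KO animals by a median log2 fold change of -2.30 over 16 genes, 0 of them called, with Ttr, the thyroxine carrier transthyretin and the most abundant of them, at 180.0 and 933.7 FPKM in the KO animals and 3366 and 6325 FPKM in the WT animals. Blood markers were also lower, with 2 of 5 called (Hba-a1 and Hba-a2, near-identical globin copies whose split by the authors' counting is uncertain) and sums of 148.7 and 158.0 FPKM in the KO animals and 287.1 and 317.2 FPKM in the WT animals. The part of these markers in the level of Car2 was not tested.

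**Figure D3:**
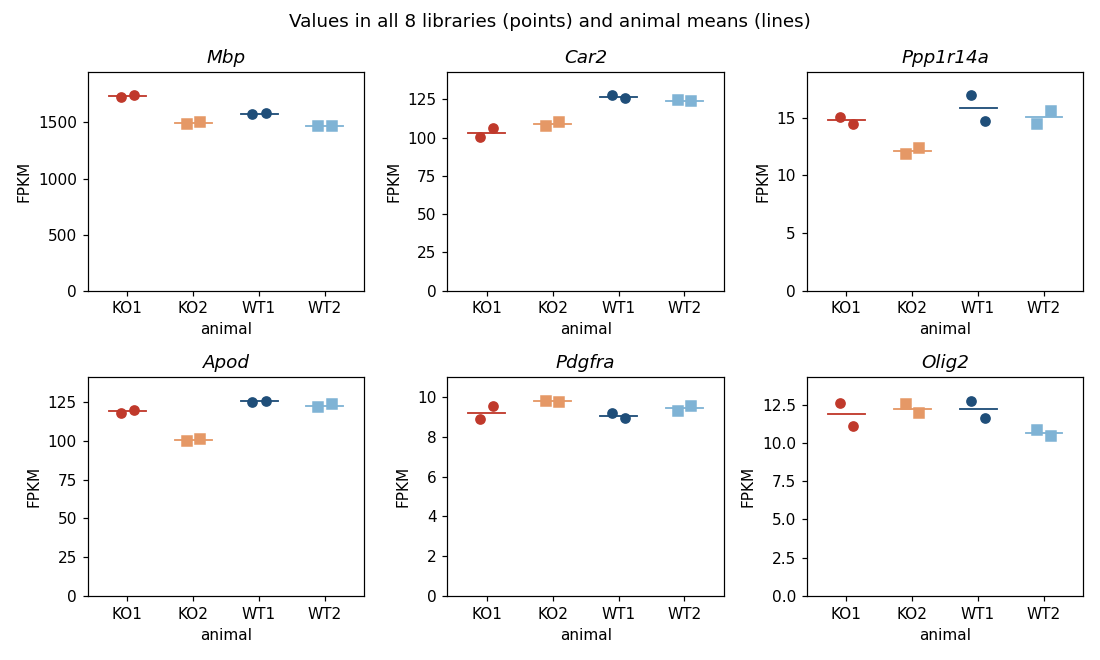
FPKM of Mbp, Car2, Ppp1r14a, Apod, Pdgfra and Olig2 in each of the 8 libraries (points) with the mean of each animal (lines), KO animals on the left and WT animals on the right, on axes that start at 0. For Car2 the KO libraries, at 100.5 to 110.4 FPKM, all lie below the WT libraries, at 124.0 to 127.6 FPKM, while for Pdgfra and Olig2 the points of the groups overlap.

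Of the other enzymes of myelin lipids and metabolism, Ugt8a separated the groups and Fa2h, Aspa and Qdpr overlapped. Ugt8a, which makes the myelin lipid galactosylceramide, had 17.6 and 15.8 FPKM in the KO animals and 15.2 and 14.5 FPKM in the WT animals. All 4 KO libraries of Ugt8a were above all 4 WT libraries (log2 fold change 0.16 ± 0.07 SE, adjusted p = 0.347). Fa2h, which hydroxylates the fatty acids of those lipids, had 21.3 and 19.2 FPKM in the KO animals and 21.0 and 20.1 FPKM in the WT animals. Its groups overlapped, with a log2 fold change of -0.02 (adjusted p = 0.904). Aspa, which splits N-acetylaspartate into acetate and aspartate, had 11.1 and 9.90 FPKM in the KO animals and 11.4 and 10.1 FPKM in the WT animals. Qdpr, which regenerates tetrahydrobiopterin, had 134.3 and 124.1 FPKM in the KO animals and 138.6 and 128.7 FPKM in the WT animals. Aspa and Qdpr overlapped between the groups, with adjusted p of 0.908 for Aspa and 0.741 for Qdpr.

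The last mature genes all had estimates below 0. Ppp1r14a, which encodes an inhibitor of a myosin phosphatase, had 15.1 and 14.4 FPKM in the libraries of KO1, 11.9 and 12.4 FPKM in those of KO2, 17.0 and 14.8 FPKM in those of WT1, and 14.5 and 15.6 FPKM in those of WT2. KO2 was the low animal, and the libraries of KO1 lay close to the lower WT libraries. Its means were 13.5 ± 1.87 FPKM in KO and 15.5 ± 0.58 FPKM in WT (log2 fold change -0.19 ± 0.10 SE, adjusted p = 0.414). Apod, which encodes the lipid carrier apolipoprotein D and is also made by perivascular and meningeal cells, had 118.0 and 120.0 FPKM in the libraries of KO1, 99.6 and 100.9 FPKM in those of KO2, 125.1 and 125.9 FPKM in those of WT1, and 121.9 and 123.4 FPKM in those of WT2. All KO libraries of Apod were below all WT libraries, most clearly those of KO2. The means were 109.6 ± 13.2 FPKM in KO and 124.1 ± 2.03 FPKM in WT (log2 fold change -0.18 ± 0.08 SE, adjusted p = 0.384). Markers of meninges had estimates below 0 in 10 of 10 genes, 0 of them called, with sums of 40.4 and 70.8 FPKM in the KO animals and 117.3 and 190.4 FPKM in the WT animals. Their part in the level of Apod was not tested. Gpr37, which encodes an orphan receptor of mature oligodendrocytes, had 18.4 and 18.2 FPKM in the KO animals and 19.6 and 17.9 FPKM in the WT animals, with overlapping groups (adjusted p = 0.825).

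Differences between the animals of 1 group were as large as those between the groups, and mature genes shared them. KO1 was above KO2 for 19 of 21 mature genes (90.5%, against 42.0% of all genes tested), and WT1 was above WT2 for 20 of 21 (95.2%, against 49.0%). Both held for 18 of 21 mature genes (85.7%, against 23.2% of all genes). The median log2 difference was 0.15 for KO1 minus KO2 and 0.07 for WT1 minus WT2 over the mature genes, against -0.02 and -0.00 over all genes. The exceptions were Car2 and Gjb1 in KO and Hapln2 in WT. Summed over the 21 mature genes, of which Mbp made up the larger share, the level was 3210 FPKM in KO1 and 2794 FPKM in KO2, against 2981 FPKM in WT1 and 2803 FPKM in WT2. The labels do not link a number in 1 group to the same number in the other, so the direction shared by the numbers is a description of these 4 animals.

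For the mature genes the gap between animals exceeded that between technical replicates. The median absolute log2 difference was 0.10 between animals of 1 group and 0.03 between technical replicates over the mature genes. Over all genes it was 0.08 between animals and 0.07 between technical replicates. Over all genes at 5 FPKM or more on average it was 0.06 between animals and 0.05 between technical replicates. Over the 3 lineage factors the order was turned round, at 0.04 between animals and 0.05 between technical replicates. Both libraries of KO1 were above both of KO2 for 15 of the 21 mature genes (71.4%, against 21.0% of all genes), and both of WT1 above both of WT2 for 17 (81.0%, against 23.0%). Of the 29 genes, 23 had a difference within a group that was larger than the difference between the group means. In the other 6, Gpr17, Sox10, Myrf, Tspan2, Ugt8a and Car2, the group difference exceeded both differences within groups. This rule sets the larger difference between single animals against a difference between means, which favours the former even with no effect of the group. The share of all genes on either side of this rule was not counted, so it sets neither the 23 nor the 6 apart. KO1 or WT1 was the highest animal for 20 of the 21 mature genes, and KO2 or WT2 the lowest for 20. Of all 16667 genes tested, KO1 was highest for 3756 and WT1 for 4346, while KO2 was lowest for 3320 and WT2 for 3729. These counts largely follow from the order within each group given above and are no further result.

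**Figure D4:**
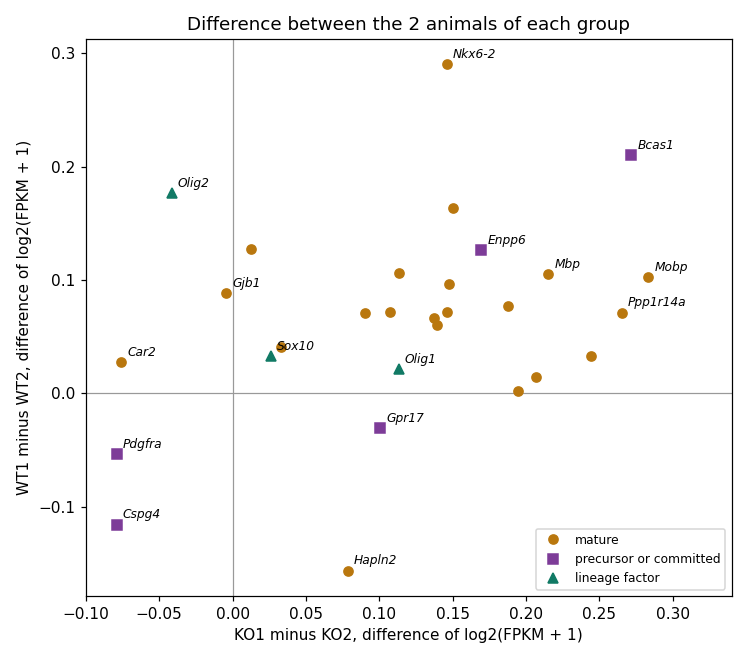
Difference of log2(FPKM + 1) between the animals of each group, KO1 minus KO2 on the horizontal axis and WT1 minus WT2 on the vertical axis, 1 point per gene, with lines at 0. Of the 21 mature genes, 18 lie in the upper right, while the precursor genes Pdgfra and Cspg4 lie in the lower left.

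Precursor and committed genes did not all follow the mature ones. KO1 was above KO2 for 3 of the 5 and WT1 above WT2 for 2 of the 5, and both held for Bcas1 and Enpp6. Bcas1 had a log2 difference of 0.27 between the KO animals and of 0.21 between the WT animals, among the widest of the 29. Pdgfra and Cspg4 went the other way in both groups, with differences of -0.08 for KO1 minus KO2 in each. For Cspg4 this was smaller than the median log2 difference between its technical replicates (0.10). Its libraries overlapped between KO1 (3.27 and 2.82 FPKM) and KO2 (3.06 and 3.48 FPKM), but not between WT1 and WT2. Of 15 other precursor genes, KO1 was above KO2 for 4 and WT1 above WT2 for 8, with both for 1. Of 39 other mature genes both held for 19 (48.7%), fewer than among the mature members but above the 23.2% of all genes. The direction was not found in oligodendrocyte genes alone, since both held for 8 of 10 microglial markers and 6 of 10 astrocyte markers, against 2 of 10 neuronal markers.

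In a wider set of oligodendrocyte genes none was called, but more of the mature ones were lower before adjustment than of all genes. Of 15 other precursor genes all were tested and 0 were called in either direction, with a median log2 fold change of 0.00 and 1, Fyn, higher at an unadjusted p under 0.05. Of 40 other mature genes 39 were tested and 0 were called, with a median log2 fold change of -0.04. At an unadjusted p under 0.05, 2 of the 39 were higher (Tppp and Adamts4; 5.13% against 4.11% of all genes) and 10 lower (25.6% against 11.4%). The 3 with the smallest p were all lower in KO and missed the threshold. Il33, which encodes a nuclear alarmin stored in oligodendrocytes and astrocytes, had 14.8 and 14.8 FPKM in the KO animals and 19.6 and 20.2 FPKM in the WT animals (log2 fold change -0.40 ± 0.04 SE, adjusted p = 0.0979). Sgk1, which encodes a stress-responsive kinase, had 44.1 and 41.1 FPKM in the KO animals and 54.3 and 61.6 FPKM in the WT animals (log2 fold change -0.43 ± 0.07 SE, adjusted p = 0.116). Trf, which encodes the iron carrier transferrin and is made by oligodendrocytes and choroid plexus, had 158.0 and 140.9 FPKM in the KO animals and 191.4 and 192.7 FPKM in the WT animals (log2 fold change -0.36 ± 0.06 SE, adjusted p = 0.116). The animals of the groups did not overlap for any of these 3 genes, but the genes were picked by p in the same animals. Such a pick favours groups that do not overlap, and both KO animals were below both WT animals for 30.7% of all genes. The part of the choroid plexus markers in the 3 genes was not tested.

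Markers of other cell types gave the setting of these values. Astrocyte markers had a median log2 fold change of -0.00 over 10 genes, with Aldoc as the most abundant at 458.3 and 405.3 FPKM in the KO animals and 395.6 and 389.3 FPKM in the WT animals. Microglial markers had a median of 0.11 and endothelial and pericyte markers of -0.04, each over 10 genes with 0 called. Neuronal markers had a median of 0.15, with 8 of 10 estimates above 0 and 0 called. Of the 10, 7 were higher at an unadjusted p under 0.05 by limma, against 4.11% of all genes. For 7 of the 10 both KO animals were above both WT animals, against 18.4% of all genes. Snap25, which encodes a synaptic fusion protein, had 976.9 and 923.1 FPKM in the KO animals and 818.6 and 837.8 FPKM in the WT animals. All 10 genes of the neuronal, astrocyte and microglial lists passed the filter on low values. Of 6 markers of Schwann cells, the myelinating cells of peripheral nerve, only 2 passed the filter on low values, and Egr2 and Sox2, which are not particular to Schwann cells, were those 2.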

How the data were processed

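RNA was extracted with Trizol and libraries were made from total RNA, per the labels' protocols. The submitters' processing notes name mm10, Bowtie (version 1) and HISAT, without saying what each did. The authors deposited FPKM with confidence limits and a status per gene and library, per the file headers; the program, any scaling between libraries and the strand setting were not given in the sources used here. Dividing by a library total lets a change in abundant genes shift all others. Each table held 55241 rows for 55188 genes, and the 53 repeated rows were summed. In all, 12 values with another status were treated as missing. The mean of the technical replicates stood for an animal. Genes reaching 0.5 FPKM in 2 animals (16667) were tested on log2(FPKM + 1), KO minus WT, with limma 3.58.1 (R 4.3.3, trended variance), Benjamini-Hochberg adjustment over all genes and a threshold of 0.05. The pseudocount understates changes of low genes. The fit was tested on simulated data. Intervals are limma's at 95%, and they and the deposited limits cover only these animals and counting error.

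Groups came from the genotype labels, and animal numbers from the titles. Coordinates of all 29 genes equal those of GENCODE M21, 13 genes overlap another annotated gene, and all are protein-coding. Promoters are RefSeq's. The genes and the marker lists were chosen with earlier results of these data known, and lists are described without a test. All 29 genes are named. Values in all 8 libraries are given for the gene with the highest mean, the 3 with the largest absolute log2 fold change, Pdgfra and Olig2; of the other oligodendrocyte genes the 3 with the smallest p are named, and of other cell types the most abundant marker (not printed for each list). Fyn, Tppp, Adamts4, the blood genes, Egr2 and Sox2 were named after their values were seen. Alternatives were other scalings, minimums, pseudocount, uses of technical replicates, units, an animal block, variance without a trend, and each animal or library left out. Figures were drawn with matplotlib 3.10.9.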

Additional observations from a re-analysis of the deposited data

Results flagged for a closer look

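In 4 of 58 sets of 4 libraries (29 genes in each group) a library stood apart from the other 3 by a gap above the 95% critical value of Dixon's test, which divides the gap by the range of the set. Chance alone marks about 1 in 20 sets, and the 4 libraries of a group are 2 technical pairs and so not independent. Aspa in KO had 8.61 FPKM in the first library of KO2, against 10.99 to 11.2 FPKM in the other KO libraries (gap 0.92 of the range). Sox10 in KO had 17.7 FPKM in the second library of KO2, against 18.2 to 18.3 FPKM in the others (gap 0.888). Gpr17 in WT had 11.5 FPKM in the first library of WT1, against 12.2 to 12.3 FPKM in the others (gap 0.876). Myrf in WT had 14.6 FPKM in the second library of WT1, against 13.81 to 13.95 FPKM in the others (gap 0.8292). For Sox10, Gpr17 and Myrf the library lay on the side that widens the difference between the groups, whereas for Aspa it set the sign. The log2 fold change of Aspa was -0.03 with its low library and 0.05 without it.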

How the results depend on the processing

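Over 23 alternatives, 0 of the 29 genes were called higher in any, and 1 was called lower in 1 alternative: Car2, with all 8 libraries as units and the animal as a correlated block (adjusted p = 0.0041), a fit that called 1086 of all genes. Counts over all genes moved widely, from 9 in the main analysis to 0 with no filter on low values, 14 at a pseudocount of 0.1, 1 without the variance trend, and 0 to 128 with an animal left out (128 without KO2). The count at an unadjusted p under 0.05, 4 in the main analysis, ranged from 1 to 9. The labels do not say that the animal numbers pair the groups; the differences of number 1 minus 2 correlated between KO and WT at 0.11 over all genes and at 0.34 over the 29, and 2 pairs cannot settle it. With the number as a replicate block 184 genes were called, 0 of them among the 29, and 8 of the 29 were under an unadjusted 0.05. The median log2 fold change of the mature genes, -0.028, moved by less than its spread between replicates (0.08) under every alternative, but it ranged from -0.091 without KO1 to 0.030 without WT1 and was 0.0081 without KO2, so its sign also rests on single animals. That of the 5 precursor and committed genes, -0.052, became 0.043 under quantile normalization and ranged from -0.068 to 0.0325 with an animal or a library left out, so its sign rests on single animals (0.0325 without KO2 and 0.011 without WT1) and on the second library of WT1 (0.0064 without it). The cause was not tested. Of the 29 estimates, 15 kept their sign under all alternatives and 14 did not, the groups of those 14 overlapping; none was called with the other sign. Depth is unknown here, and the 95% intervals given above show the size of change that these animals do not resolve.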
